A study of Homo sapiens with 51 samples.

Results

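The genes described here encode the subunits, activators, inhibitor and dedicated assembly chaperones of the proteasome. They were chosen by symbol alone, as every gene of the deposited expression table named PSMA to PSMG with a number, leaving out the immunoproteasome genes PSMB8 and PSMB9. The rule found 45 of the 24033 genes in the table and used no measured value. They comprise 7 subunits of the alpha ring, 9 of the beta ring, 6 ATPases and 3 other proteins of the base, 8 lid subunits, 3 chaperones of the regulatory particle, 5 activators and inhibitors, and 4 chaperones of the core particle. PSMB11, a beta subunit known from thymus, had at most 1 read in any library and was tested nowhere. The other 44 passed the filter on low reads in every comparison.

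The proteasome is the protease that degrades proteins tagged with ubiquitin. Its barrel-shaped core is made of outer alpha rings, which gate the entry, and inner beta rings, which hold the active sites. The regulatory particle sits on the core: its lid removes ubiquitin, and the ATPases of its base unfold the substrate and feed it into the barrel. Interferon replaces the catalytic subunits by PSMB8, PSMB9 and PSMB10 and adds the PSME1/PSME2 activator, which shapes peptides for antigen presentation. When proteasome activity is short, the transcription factor NFE2L1 is processed and raises many subunit genes together.

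HMLE are immortalised human mammary epithelial cells, labelled wild type, and HMLE-TWIST1 cells derive from them and overexpress TWIST1, a transcription factor of epithelial-mesenchymal transition. The labels name neither the promoter of the introduced gene nor whether the line is a clone, so the effect of TWIST1 and any other difference between the lines cannot be told apart. The 51 total RNA libraries form 17 groups of 3. HMLE-TWIST1 cells received chaetocin, a fungal toxin used as an inhibitor of the histone methyltransferase SUV39H1, at 100, 150, 200 or 500 nM for 48 h, or at 80 nM for 15 h followed by 48 h in fresh medium. DMSO served as control for both schedules, in both lines. Both lines also received DsiRNA duplexes against SUV39H1 and SUV39H2, or scramble duplexes, and were taken after 48 h or after a further 48 h in fresh medium. "Day 2" below means 48 h of exposure, and "day 4" means exposure followed by 48 h of recovery, where the exposure was 15 h for DMSO and chaetocin and 48 h for the duplexes. The labels do not say that replicates were separate cultures, so the p-values measure only the spread between these libraries.

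Levels are given in CPM, reads relative to the library total after trimmed-mean scaling of the totals, and changes are log2 fold changes with their standard error (SE) from limma. A gene was called changed where its p, adjusted by Benjamini-Hochberg over all genes tested, was under 0.05. Libraries held 7897060 to 15662400 reads, of which the proteasome genes took 0.217 to 0.417%. TWIST1 had 4.89, 5.62 and 4.78 CPM in the HMLE DMSO libraries of day 2 and 508, 498 and 639 in HMLE-TWIST1. Summed epithelial markers ran from 10481 to 25427 CPM in HMLE and from 41.4 to 231 in HMLE-TWIST1, so the mammary epithelial label holds for HMLE and goes against the markers in HMLE-TWIST1. Summed markers of endothelial cells reached at most 10.2 CPM and those of adipocytes 1.70, while leukocyte markers reached 18.02 CPM at 500 nM, from at most 0.539 in the matching DMSO libraries. In bulk RNA, fewer cells of a type and less RNA per cell cannot be told apart. The table was made in 3 separately scaled parts, and the libraries of 100 to 500 nM lie in another part than their DMSO controls, so for these a batch and the treatment cannot be told apart.

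Promoters are shown first for PSMB10, PSME1, PSME2 and PSMA4, picked because these genes both rose in the 2 lines at day 4 after knockdown and hold a short motif. The sequences are RefSeq's on GRCh38.p14 and cover 250 bases before to 50 after the start of the gene, 5′ to 3′ on the gene's own strand. PSMB10 lies at chr16:67936801-67937100 on the minus strand, PSME1 at chr14:24135944-24136243 on the plus strand, PSME2 at chr14:24146561-24146860 on the minus strand and PSMA4 at chr15:78540155-78540454 on the plus strand. Capitals mark GAAANNGAA, a pair of GAAA-type elements as bound by interferon regulatory factors, or its reverse complement.
PSMB10: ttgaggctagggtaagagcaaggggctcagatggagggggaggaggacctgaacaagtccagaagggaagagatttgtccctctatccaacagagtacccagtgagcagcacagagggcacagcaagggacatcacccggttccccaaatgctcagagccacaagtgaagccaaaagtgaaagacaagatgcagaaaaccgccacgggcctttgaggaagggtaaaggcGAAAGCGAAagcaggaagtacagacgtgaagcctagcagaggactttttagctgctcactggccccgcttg
PSME1: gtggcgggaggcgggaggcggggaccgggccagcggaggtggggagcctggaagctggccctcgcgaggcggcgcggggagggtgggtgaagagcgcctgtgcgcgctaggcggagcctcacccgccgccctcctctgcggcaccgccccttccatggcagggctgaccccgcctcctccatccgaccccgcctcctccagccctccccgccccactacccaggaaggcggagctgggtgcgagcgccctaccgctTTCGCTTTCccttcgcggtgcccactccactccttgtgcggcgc
PSME2: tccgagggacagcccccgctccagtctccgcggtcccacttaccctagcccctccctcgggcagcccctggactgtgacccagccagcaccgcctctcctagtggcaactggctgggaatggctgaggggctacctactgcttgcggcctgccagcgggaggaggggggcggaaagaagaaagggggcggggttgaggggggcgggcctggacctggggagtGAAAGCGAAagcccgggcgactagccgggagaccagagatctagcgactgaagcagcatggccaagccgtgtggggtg
PSMA4: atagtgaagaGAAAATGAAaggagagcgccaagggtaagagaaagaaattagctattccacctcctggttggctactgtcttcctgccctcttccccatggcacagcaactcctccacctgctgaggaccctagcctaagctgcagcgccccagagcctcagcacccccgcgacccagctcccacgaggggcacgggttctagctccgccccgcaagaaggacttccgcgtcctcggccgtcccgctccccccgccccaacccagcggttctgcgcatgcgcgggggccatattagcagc
A promoter of this length was at hand for 39 of the 45 genes. GAAANNGAA was found on either strand in 7 of the 39 (17.95%), against 8.292% of all 27305 promoters, and the other holders were PSMB4, PSMC2 and PSMG4. These 3 did not rise in both lines at day 4: in HMLE and HMLE-TWIST1 the changes after knockdown were 0.06 and -0.09 for PSMB4, 0.02 and 0.21 for PSMC2 and 0.31 and -0.14 for PSMG4, of which PSMC2 passed in HMLE-TWIST1 and PSMG4 in HMLE, a call lost under 7 of the alternative settings. The core of the antioxidant response element, TGACNNNGC, which NFE2L1 and NFE2L2 bind with small MAF proteins, was in 12 of the 39 (30.77%), against 13.56% of all. CCAAT was in 18 (46.15% against 35.7%), and the interferon-gamma site TTCNNNGAA in 4 (10.26% against 7.881%). All motifs were searched on both strands, the interferon motifs share GAA and can overlap, and a match is a string in a window, not a bound site.

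Levels per length differed widely between these genes, also among the alpha subunits, which occur in equal numbers in the particle. In HMLE DMSO cells of day 2, PSME1 had the highest RPKM (CPM relative to gene length), 176, followed by the alpha subunit PSMA7 with 159 and the lid subunit PSMD7 with 58.3. The lowest were the chaperone PSMD9 with 0.431, the alpha subunit PSMA2 with 1.23, the ATPase PSMC1 with 1.49 and the alpha subunit PSMA6 with 1.84. The lengths used for PSMD9, PSMA2 and PSMA6 were 8778, 5332 and 6474 bases. These are close to all their exonic bases in GENCODE 29 (8774, 5336 and 6506), which was not so for PSMC1 (3356 against 6161). A length over all exons gives a lower RPKM to genes whose transcripts hold only part of them. How reads were assigned can also move such levels. In GENCODE 29, 75.8% of the exonic bases of PSMC1 lie opposite another gene, 34.6% of those of PSMA2 and 34.8% of those of PSMB10 overlap another gene, and PSMC1 has 13 named pseudogenes and PSMA6 has 4. The libraries are stranded per the labels, but whether strand was used in counting is not given in the sources used here, so these genes' levels are uncertain.

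Across the 17 group means PSMB10 varied most, by 5.11-fold in RPKM, then the activator PSME2 by 3.69-fold, the deubiquitinase PSMD14 by 3.24-fold, and the catalytic subunits PSMB6 by 3.20-fold and PSMB5 by 2.60-fold. The ubiquitin receptor PSMD4 varied least, by 1.29-fold, next to the ATPase PSMC6 with 1.40-fold and PSMB1 with 1.43-fold. HMLE DMSO cells of day 2 held the highest mean of 13 genes and the 500 nM group that of 9. The 500 nM group also held the lowest mean of 6 genes, among them the catalytic PSMB5 and PSMB6.

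**Figure D1:**
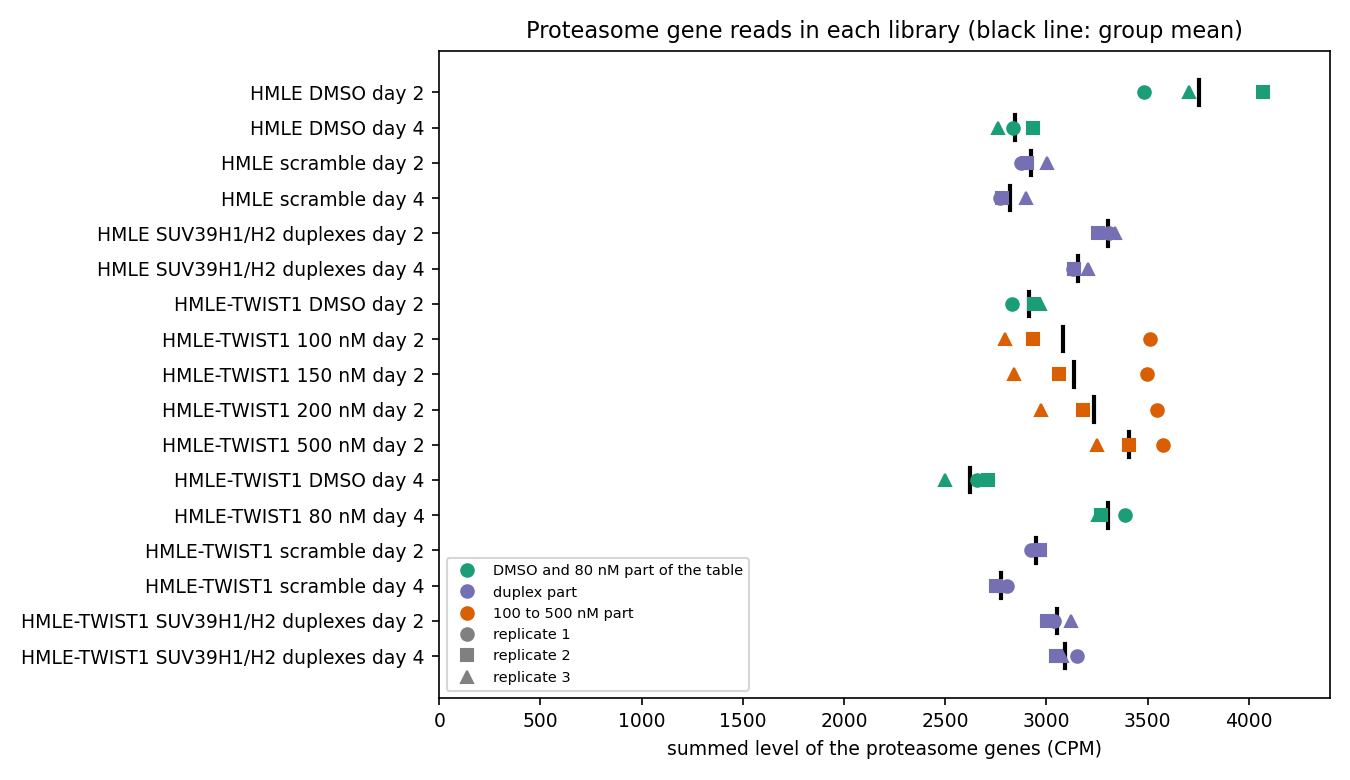
Summed level of the proteasome genes (x axis, CPM) in each of the 51 libraries, by group (y axis); marker shape gives the replicate, colour the part of the table, and the black line the group mean. HMLE DMSO cells of day 2 have the highest mean, with libraries at 3483 to 4070.3 CPM, and each of the 4 doses given for 48 h has its highest library in replicate 1.

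The summed level in CPM was highest in HMLE DMSO cells of day 2, with 3752 ± 297 (SD, n = 3), and was 2912 ± 72.1 in HMLE-TWIST1 DMSO cells of that day. It was 2843 ± 86.0 and 2621 ± 110.1 CPM in the DMSO cells of day 4 of HMLE and HMLE-TWIST1. The sum weighs abundant genes most. All libraries were scaled together for it, but between groups in different parts of the table a batch and the treatment cannot be told apart. The order turned with the scaling: as a share of all reads the 500 nM group was highest, with 0.389 ± 0.0204%, against 0.375 ± 0.0354% in HMLE DMSO cells of day 2. In the scramble cells of day 2 the sums were 2926 ± 66.9 CPM in HMLE and 2951 ± 25.2 in HMLE-TWIST1, and the shares of all reads 0.263 ± 0.00602% and 0.296 ± 0.00352%, so the lines lay apart on the unscaled measure only.

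Between the lines, HMLE-TWIST1 against HMLE asks how the mesenchymal state differs from the epithelial one. In DMSO at day 2, 18 of the 44 genes were lower in HMLE-TWIST1 and 2 were higher (all genes tested: 24.1% higher, 23.2% lower), with a median log2 fold change of -0.30 against 0.01 over all genes. All 5 activators and inhibitors were lower, as were 4 of 7 alpha and 4 of 8 beta subunits, while the ATPases gave 1 call among 6. The fit behind these day 2 calls held 18 libraries. It included the chaetocin dose libraries of that day, from another part of the table, which entered the estimate of spread. In most pairs, replicates of the dose groups differed more than those of the DMSO groups. Under the alternatives other than leaving out a library, 20 to 29 genes were called, 18 to 27 lower and 2 higher. At day 4 in DMSO, 14 were lower and 6 higher (all genes: 33.5% higher, 33.4% lower), with a median of -0.13. The share of the 44 that was lower, 31.8%, is near that of all genes. In scramble cells the calls went both ways. At day 2, 17 genes were higher and 11 lower (all genes: 35.7% and 33.3%), with a median of 0.04. The share of the 44 that was higher, 38.6%, is near that of all genes. At day 4, 9 were higher and 11 lower (all genes: 37.6% and 36.8%), and 10 higher and 7 lower when the deposited scaling was kept. The DMSO and scramble libraries lie in separate parts of the table and whether the line difference differs between them was not tested.

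PSMB10, the inducible trypsin-like subunit, was lower in the mesenchymal line in all 4 controls. In DMSO at day 2 it had 6.64, 6.03 and 9.15 CPM in HMLE and 2.10, 2.20 and 2.00 in HMLE-TWIST1. The groups did not overlap, and the log2 fold change was -1.70 (SE 0.26, limma adjusted p = 3.3e-05). It was -1.44 at day 4, and -1.07 and -0.67 in scramble cells of days 2 and 4. The constitutive counterpart PSMB7 was lower too, with 54.1, 55.0 and 58.9 CPM in HMLE and 33.3, 33.0 and 33.8 in HMLE-TWIST1, every HMLE library above every HMLE-TWIST1 library. Its change was -0.76 (SE 0.13, limma adjusted p = 1.2e-04) there, and -0.53, -0.59 and -0.76 in the other controls. In the reported fits the chymotrypsin-like PSMB5 passed only in DMSO at day 4 (-0.30, a call lost without any of 3 libraries, HMLE replicate 1 or HMLE-TWIST1 replicate 2 or 3). In DMSO at day 2 PSMB5 passed with only the groups compared in the fit (-0.29, limma adjusted p = 0.021). On the deposited scaling it passed there too (-0.31, limma adjusted p = 0.0068). The caspase-like PSMB6 passed in none of the 4. In DMSO at day 2 it was -0.42 (95% interval -0.82 to -0.03), and with the replicate number as a block it passed (limma adjusted p = 0.044), as did PSMA1, PSMA7 and PSMD13. PSMB6 also passed there with only the groups compared in the fit, on the deposited scaling and with precision weights (limma adjusted p = 0.015, 0.017 and 0.043).

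The activator subunits PSME1 and PSME2, which form 1 ring together, were lower in HMLE-TWIST1 in DMSO. PSME2 had 64.1, 75.6 and 69.2 CPM in HMLE and 25.1, 24.3 and 27.1 in HMLE-TWIST1 at day 2, a change of -1.46 (SE 0.21, limma adjusted p = 1.7e-05). PSME1 had 302, 311 and 327 and 139, 157 and 150.4 CPM, a change of -1.09 (SE 0.12, limma adjusted p = 4.4e-07). Neither gene's groups overlapped. In scramble cells the differences were smaller in value: PSME2 was -0.41 at day 2 and -0.17 at day 4, the last with overlapping groups and a call lost under 7 of the alternative settings. PSME1 was -0.51 at day 2, and at day 4 -0.04 (95% interval -0.15 to 0.08), which did not pass. PSME4, the single-chain activator, was lower in all 4 controls (-0.78 and -0.97 in DMSO, -0.45 and -0.86 in scramble). The inhibitor PSMF1 was lower by nearly the same amount in each, from -0.58 to -0.55. PSME3, the activator of the nucleus, was called only in DMSO, and lower (-0.34 and -0.25), with 0.02 (95% interval -0.09 to 0.14) in scramble at day 2.

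In the regulatory particle the lid deubiquitinase PSMD14 went the other way. It had 34.1, 50.7 and 38.7 CPM in HMLE DMSO cells of day 2 and 58.3, 66.1 and 69.5 in HMLE-TWIST1, a change of 0.65 (SE 0.12, limma adjusted p = 2.8e-04). In scramble cells of day 4 it had 25.8, 29.4 and 27.4 CPM in HMLE and 79.9, 76.5 and 73.7 in HMLE-TWIST1, a change of 1.47 (SE 0.07, limma adjusted p = 3.0e-12). The groups were apart in both, and the changes in DMSO of day 4 and scramble of day 2 were 0.83 and 1.12. The lid subunit PSMD8 was also higher in all 4, by 0.40, 0.68, 0.56 and 0.91, where the first call was lost without HMLE replicate 1 or 3 or HMLE-TWIST1 replicate 2 or 3. PSMD7, the lid partner of PSMD14, was lower in all 4, from -0.52 to -0.34. Thus lid genes moved in both directions between the lines. The ubiquitin receptor PSMD4 passed in no control, with -0.32 (95% interval -0.63 to -0.01) in DMSO at day 2.

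Largest among the scramble calls beside these were the chaperone PSMG4, higher by 0.99 at day 4, and the ATPases PSMC2, by 0.62 at day 2, and PSMC3, by 0.65 at day 4. The alpha subunit PSMA3 changed sign between the experiments: it was lower in HMLE-TWIST1 in DMSO at day 2 (-0.82) and higher in scramble at days 2 and 4 (0.35 and 0.46). PSMA3 had 109, 139 and 133 CPM in the HMLE DMSO libraries of day 2 and 56.8, 57.8 and 65.0 in the HMLE scramble libraries of day 2. In HMLE-TWIST1 the same groups had 65.6, 77.9 and 73.4 and 69.1, 78.0 and 75.4 CPM. The HMLE DMSO libraries were the high ones, in levels compared across parts of the table, where a batch and the treatment cannot be told apart.

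Outside the 45 genes, PSMB8 and PSMB9 were lower in HMLE-TWIST1 in 3 of the 4 controls, at -1.28 and -1.24 in DMSO at day 2, -0.51 and -0.47 in DMSO at day 4 and -0.48 and -0.32 in scramble at day 2. They were higher in scramble at day 4, at 0.19 and 0.69. NFE2L1 was lower in each control, from -1.41 in DMSO at day 2 to -1.17 in scramble at day 4. Of 13 further proteasome partners 9 were lower and 0 higher in DMSO at day 2, with a median of -0.35. They included PAAF1, an assembly chaperone of the ATPases (-1.61), ZFAND5, which binds and activates the proteasome (-0.78), and KIAA0368, a proteasome adaptor (-0.47). The core maturation factor POMP was -0.27, which did not pass. Of 12 ubiquitin shuttles and p97 cofactors 2 were higher and 4 lower, and of 6 ubiquitin genes and E1 enzymes 1 was higher and 2 lower.

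**Figure D2:**
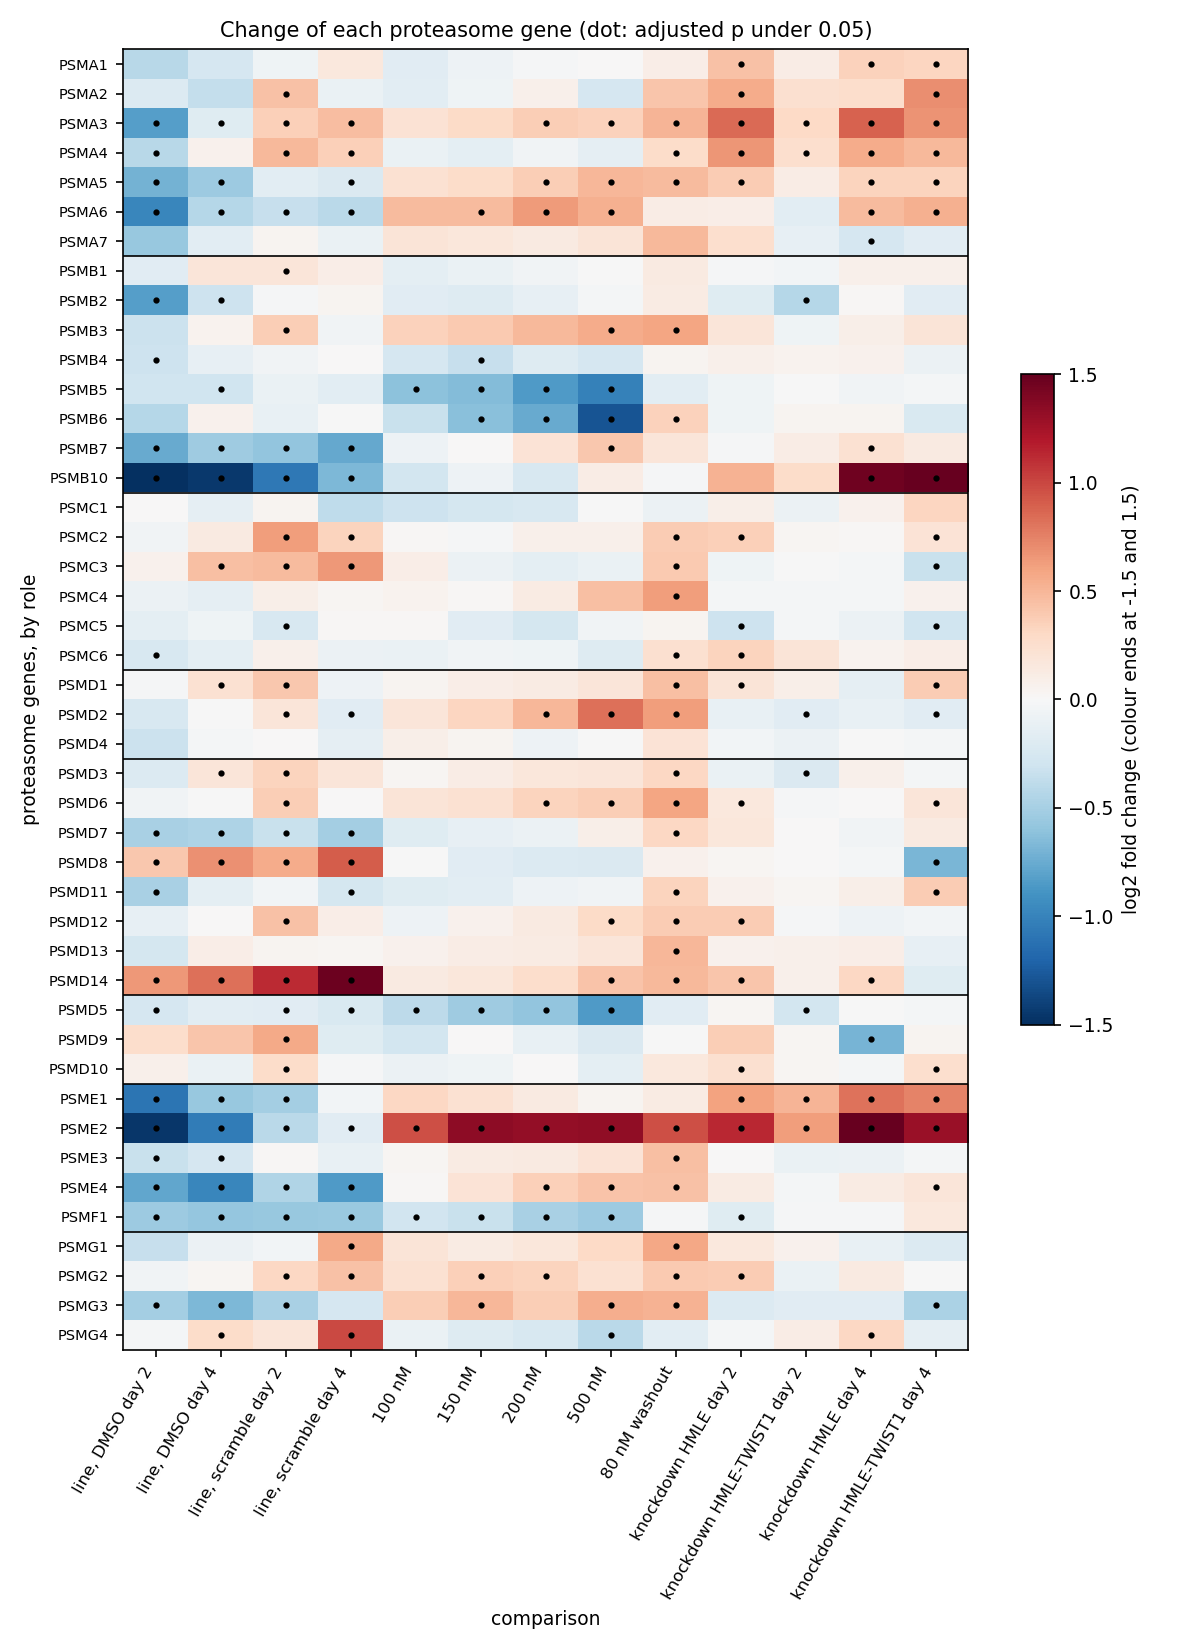
Log2 fold change (colour, ending at -1.5 and 1.5) of the 44 tested genes (rows, by role), with a dot where adjusted p was under 0.05. The columns are the comparisons between lines, of chaetocin with DMSO and of knockdown with scramble. All 24 dots of the washout column lie on red cells, and the activators PSME1 and PSME2 are blue between the lines in DMSO and red after knockdown.

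Day 4 was compared with day 2 within controls. In DMSO, day 2 is 48 h of exposure and day 4 is 15 h of exposure with 48 h of recovery. Time, exposure and fresh medium therefore cannot be told apart. In HMLE DMSO cells, 28 of the 44 genes were lower at day 4 than at day 2 and 0 higher (all genes: 20.6% higher, 15.4% lower), with a median of -0.34 against 0.05. All 8 lid subunits, all 3 non-ATPase base proteins, 6 of 8 beta and 5 of 7 alpha subunits fell. PSMA3 fell from 109, 139 and 133 to 65.0, 71.1 and 72.8 CPM, by a log2 fold change of -0.84 (SE 0.09, limma adjusted p = 2.6e-06). PSMB6 fell from 27.2, 35.8 and 36.5 to 22.4, 20.7 and 17.15 CPM (-0.70) and the beta subunit PSMB2 from 57.9, 80.7 and 74.7 to 45.0, 49.1 and 37.7 (-0.67). In each of these genes all day 2 libraries lay above all day 4 libraries, and replicate 1 was the lowest at day 2. PSMB7, PSMD14, PSMD4, PSME1, PSME2 and PSME3 also fell (-0.30, -0.39, -0.34, -0.32, -0.45 and -0.36). The calls of PSMD4 and PSMD14 were lost without HMLE day 2 replicate 2, among other single libraries.

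In HMLE-TWIST1 DMSO cells limma called 0 of the 44 genes (all genes: 0.147% higher, 0.198% lower), with 14 at an unadjusted p under 0.05 and a median of -0.15. The difference of this day effect between the lines was tested after the values had been seen. It was positive for 7 genes and negative for 0 (all genes: 8.14% positive, 11.5% negative), with a median of 0.21 against -0.04. PSMA3 differed by 0.64 (SE 0.13, limma adjusted p = 0.0022), PSME1 by 0.53 and PSMA4 by 0.48. The count ranged from 3 without HMLE replicate 2 of day 2 or replicate 3 of day 4 to 13 without HMLE replicate 1 of day 2. With the replicate number as a block 11 genes passed, PSMA7, PSMB1, PSMD13 and PSME2 being added to the 7.

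Scramble cells moved less uniformly from day 2 to day 4. Their exposure was 48 h on both days, so the interval is not that of the DMSO cells. In HMLE 16 genes fell and 6 rose from day 2 to day 4 (all genes: 21.7% higher, 20.6% lower), with a median of -0.08. In HMLE-TWIST1 13 fell and 6 rose (all genes: 13.6% higher, 15.5% lower), with a median of -0.08. The share of the 44 that rose in HMLE-TWIST1, 13.6%, is near that of all genes. Of 8 beta subunits 6 fell in each line, and of 6 ATPases 2 fell and 2 rose in HMLE and 0 were called in HMLE-TWIST1. PSMB5 fell with a change of -0.37 in HMLE and -0.39 in HMLE-TWIST1, PSMB7 by -0.27 and -0.40. PSME1 fell in HMLE (-0.27) and rose in HMLE-TWIST1 (0.23). In HMLE the largest rise was that of PSMD9 (0.68), followed by PSMC2 (0.33) and the lid subunit PSMD12 (0.29), and the largest falls were those of the chaperones PSMG4 (-0.45) and PSMG1 (-0.41) and the ATPase PSMC5 (-0.37). In HMLE-TWIST1 the largest falls were those of the base scaffold PSMD1 (-0.49) and the beta subunit PSMB3 (-0.42), with rises of PSMD8 (0.45) and PSMG4 (0.40).

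Under chaetocin for 48 h the calls went both ways. At 500 nM, 12 of the 44 genes were higher than in DMSO and 5 lower (all genes: 26% higher, 24.7% lower), with a median of 0.08 against 0.02. At 200 nM 8 were higher and 4 lower (all genes: 20.9% and 19.1%), with 150 nM 4 and 5 (all genes: 17.8% and 16.5%), and with 100 nM 1 and 3 (all genes: 11.9% and 11.8%). Of the 44 genes 27.3% were higher at 500 nM, near the share of all genes. The other shares of the 44 at these doses, higher or lower, were below those of all genes. These 4 comparisons share their DMSO libraries, which are also the HMLE-TWIST1 libraries of the line comparison of that day. The counts rest on few libraries: the 200 nM count of 12 was 7 without DMSO replicate 1. The 150 nM count of 9 was 5 without 150 nM replicate 1 or 2 or DMSO replicate 2 and 4 without DMSO replicate 3, and the 100 nM count of 4 was 7 without 100 nM replicate 3. At 500 nM the calls were 3 higher of 7 alpha, 2 higher and 2 lower of 8 beta, 3 higher of 8 lid subunits and 0 of 6 ATPases. The ATPase PSMC4 had 0.45 there and passed with only the groups compared in the fit (limma adjusted p = 0.014). With median-ratio scaling it passed too (limma adjusted p = 0.040).

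**Figure D3:**
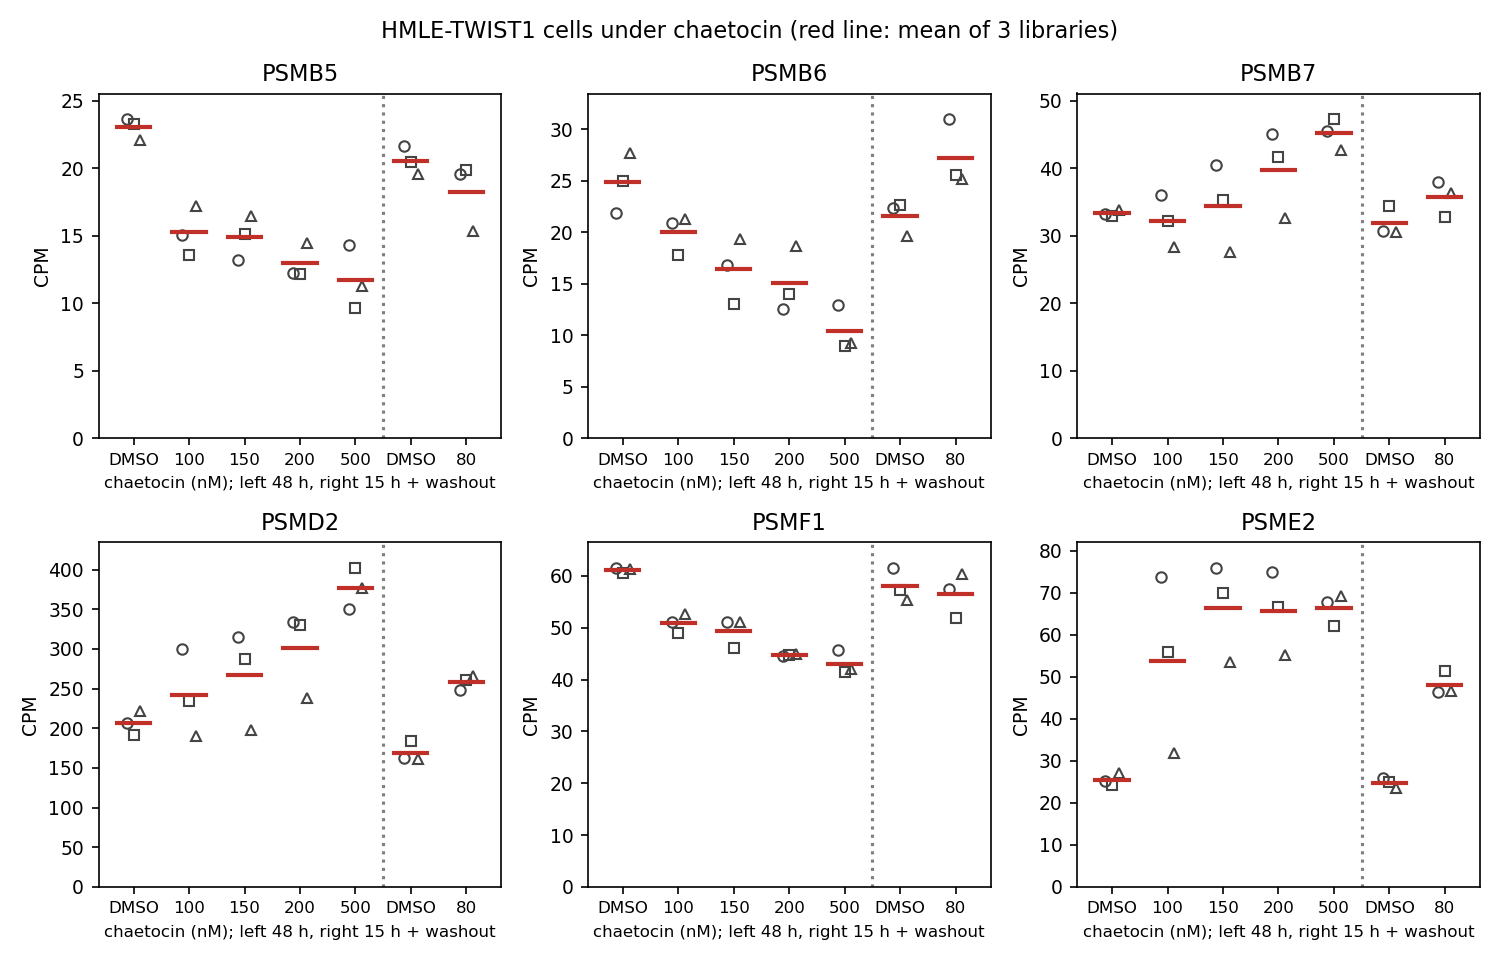
Level (y axis, CPM, starting at 0) of 6 proteasome genes in HMLE-TWIST1 libraries under DMSO and chaetocin (x axis, nM); to the left of the dotted line 48 h of exposure, to the right 15 h and washout, with 1 point per library and a red line at the mean. PSMB5 and PSMB6 descend from DMSO to 500 nM, while PSMD2 and PSME2 lie higher at 500 nM than in DMSO.

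Of the catalytic subunits, PSMB5 and PSMB6 fell while PSMB7 rose at 500 nM. PSMB5 had 23.6, 23.3 and 22.1 CPM in DMSO. With 100 nM it had 15.1, 13.6 and 17.2, with 150 nM 13.2, 15.1 and 16.5, with 200 nM 12.2, 12.2 and 14.5, and with 500 nM 14.3, 9.62 and 11.2. Every treated library lay below every DMSO library, and the changes were -0.61, -0.65, -0.85 and -1.02 (SE 0.14, limma adjusted p = 2.5e-05). PSMB6 had 21.8, 25.0 and 27.7 CPM in DMSO, 20.9, 17.8 and 21.3 with 100 nM and 13.0, 8.93 and 9.25 with 500 nM. It did not pass at 100 nM (-0.33), and its changes were -0.63 with 150 nM, -0.76 with 200 nM and -1.30 (SE 0.19, limma adjusted p = 3.1e-05) with 500 nM, where the 150 nM call was lost without 150 nM replicate 2 or DMSO replicate 2 or 3. PSMB7 had 33.3, 33.0 and 33.8 CPM in DMSO and 45.6, 47.3 and 42.7 at 500 nM, a rise of 0.40 (SE 0.13, limma adjusted p = 0.019) that was lost without 500 nM replicate 2. PSMB10 passed at no dose, with 0.11 (95% interval -0.45 to 0.67) at 500 nM.

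PSMD5, a chaperone that holds the ATPases during assembly, fell at every dose, from 44.8, 45.6 and 48.9 CPM in DMSO to 26.2, 26.0 and 26.7 at 500 nM, with no overlap. Its changes were -0.39, -0.53, -0.59 and -0.85 (SE 0.09, limma adjusted p = 1.8e-06). The inhibitor PSMF1 fell from 61.6, 60.5 and 61.4 to 45.7, 41.4 and 41.9 CPM at 500 nM (-0.54, SE 0.08, limma adjusted p = 2.6e-05), after -0.29, -0.33 and -0.48 at the lower doses, where the 100 nM call was lost without 100 nM replicate 2 or DMSO replicate 2 or 3. The activator PSME2 rose at every dose. It had 25.1, 24.3 and 27.1 CPM in DMSO and 73.8, 55.8 and 31.8 with 100 nM, where replicate 3 lay nearest to DMSO, and 67.9, 62.1 and 69.1 with 500 nM. The changes were 0.97, 1.34, 1.31 and 1.34 (SE 0.21, limma adjusted p = 7.4e-05), while its ring partner PSME1 passed at no dose (0.05, 95% interval -0.20 to 0.29 at 500 nM). PSME4 rose by 0.43 at 500 nM, and PSME3 did not pass (0.20, 95% interval -0.01 to 0.41).

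The base scaffold PSMD2, which docks ubiquitin shuttles, rose from 206, 191 and 221 CPM in DMSO to 349.9, 403 and 376 at 500 nM, the groups being apart (0.83, SE 0.17, limma adjusted p = 8.3e-04). Further rises at 500 nM were PSMB3 (0.56, lost without 500 nM replicate 1 or 2 or DMSO replicate 2 or 3), the core chaperone PSMG3 (0.55) and PSMD14 (0.43). PSMG3 lost its call without 500 nM replicate 1 or DMSO replicate 2 or 3. The alpha subunits PSMA6, PSMA5 and PSMA3 rose by 0.53, 0.49 and 0.34. The call of PSMA6 was lost without 500 nM replicate 1 or DMSO replicate 3, and that of PSMA3 without 500 nM replicate 2 or 3 or DMSO replicate 1. PSMD4 did not pass (-0.01, 95% interval -0.32 to 0.30).

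Between doses, 500 against 100 nM gave 4 genes higher and 3 lower (all genes: 9.05% higher, 7.89% lower), with a median of 0.12 against 0.00. These are 9.09% and 6.82% of the 44, near the shares of all genes. The 500 and 100 nM groups lie in the same part of the table, and the fit also held the DMSO groups of day 2. PSMB6 fell further, from 20.9, 17.8 and 21.3 to 13.0, 8.93 and 9.25 CPM (-0.97, SE 0.19, limma adjusted p = 0.0042), and PSMD5 from 36.7, 34.3 and 37.1 to 26.2, 26.0 and 26.7 (-0.47, SE 0.09, limma adjusted p = 0.0044). PSMF1 fell with a change of -0.26, and PSMD2, PSMB7 and PSME4 rose by 0.64, 0.48 and 0.42, and all 4 calls were lost without 500 nM replicate 2 or 100 nM replicate 3. With the dose libraries alone in the fit, a setting chosen after seeing the data, 4 genes passed, and PSMD2, PSMB7 and PSMF1 did not. PSMB5 was -0.41 (95% interval -0.71 to -0.10) and passed with the replicate block (limma adjusted p = 0.045). The total of 7 calls was 2 without 500 nM replicate 2 or without 100 nM replicate 3, 4 without 500 nM replicate 3, and 2 lower with 0 higher on the deposited scaling. Same-numbered libraries deviated together in these groups, and with the replicate block 10 genes passed, 6 higher and 4 lower, or 14, 8 higher and 6 lower, when only the dose libraries were in the fit.

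Partners of the proteasome moved in the same libraries. At 500 nM, POMP rose by 0.68 and NFE2L1 fell with a change of -0.90, as it did at each lower dose (-0.82, -0.94 and -0.93). Of 13 partners 7 were higher and 0 lower at 500 nM, with a median of 0.28, among them PITHD1 (0.41) and AKIRIN2 (0.78), which carries proteasomes into the nucleus. In the NFE2L1 route, of 8 genes 4 were higher and 2 lower, among them the small MAF proteins MAFF (3.81) and MAFG (1.64). All 7 NFE2L2 targets measured were higher, with a median of 1.15, as HMOX1 (4.54), TXNRD1 (1.15) and GCLM (1.05). Of 8 heat shock genes 5 were higher and 1 lower, among them HSPA1A (2.11), HSP90AA1 (1.04) and HSPH1 (1.96). Among 12 shuttles and cofactors 3 were higher and 2 lower, with SQSTM1 up by 2.26 and RAD23B at -0.87. PSMB8 fell with a change of -0.39, PSMB9 was 0.05 and did not pass, and 1 of 9 antigen processing genes rose, IRF1 (2.79), while 3 fell, B2M by -0.74.

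Other markers moved with the doses. Summed mesenchymal markers fell from 26469 to 31768 CPM in DMSO to 6005 to 8127 at 500 nM. The leukocyte markers ITGAM and PTPRC rose to 2.74, 5.50 and 14.1 and 1.55, 3.73 and 3.15 CPM at 500 nM, from at most 0.154 and 0.1002 CPM in DMSO, and the endothelial VWF to 1.73, 2.75 and 2.19. The part of these in the proteasome results was not tested.

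After 80 nM chaetocin for 15 h and 48 h of recovery the genes moved in 1 direction. Of the 44, 24 were higher than in the matching DMSO cells and 0 lower (all genes: 19.4% higher, 17.2% lower), with a median of 0.33 against 0.01 over all genes, and 37 fold changes were positive. Both groups lie in the same part of the table. The rises covered 7 of 8 lid subunits, 4 of 6 ATPases, 2 of 3 other base proteins, 3 of 7 alpha subunits, 3 of 5 activators and inhibitors and 3 of 4 core chaperones, but 2 of 8 beta subunits and 0 of 3 chaperones of the regulatory particle. The count was 22 to 26 under every setting tried.

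**Figure D4:**
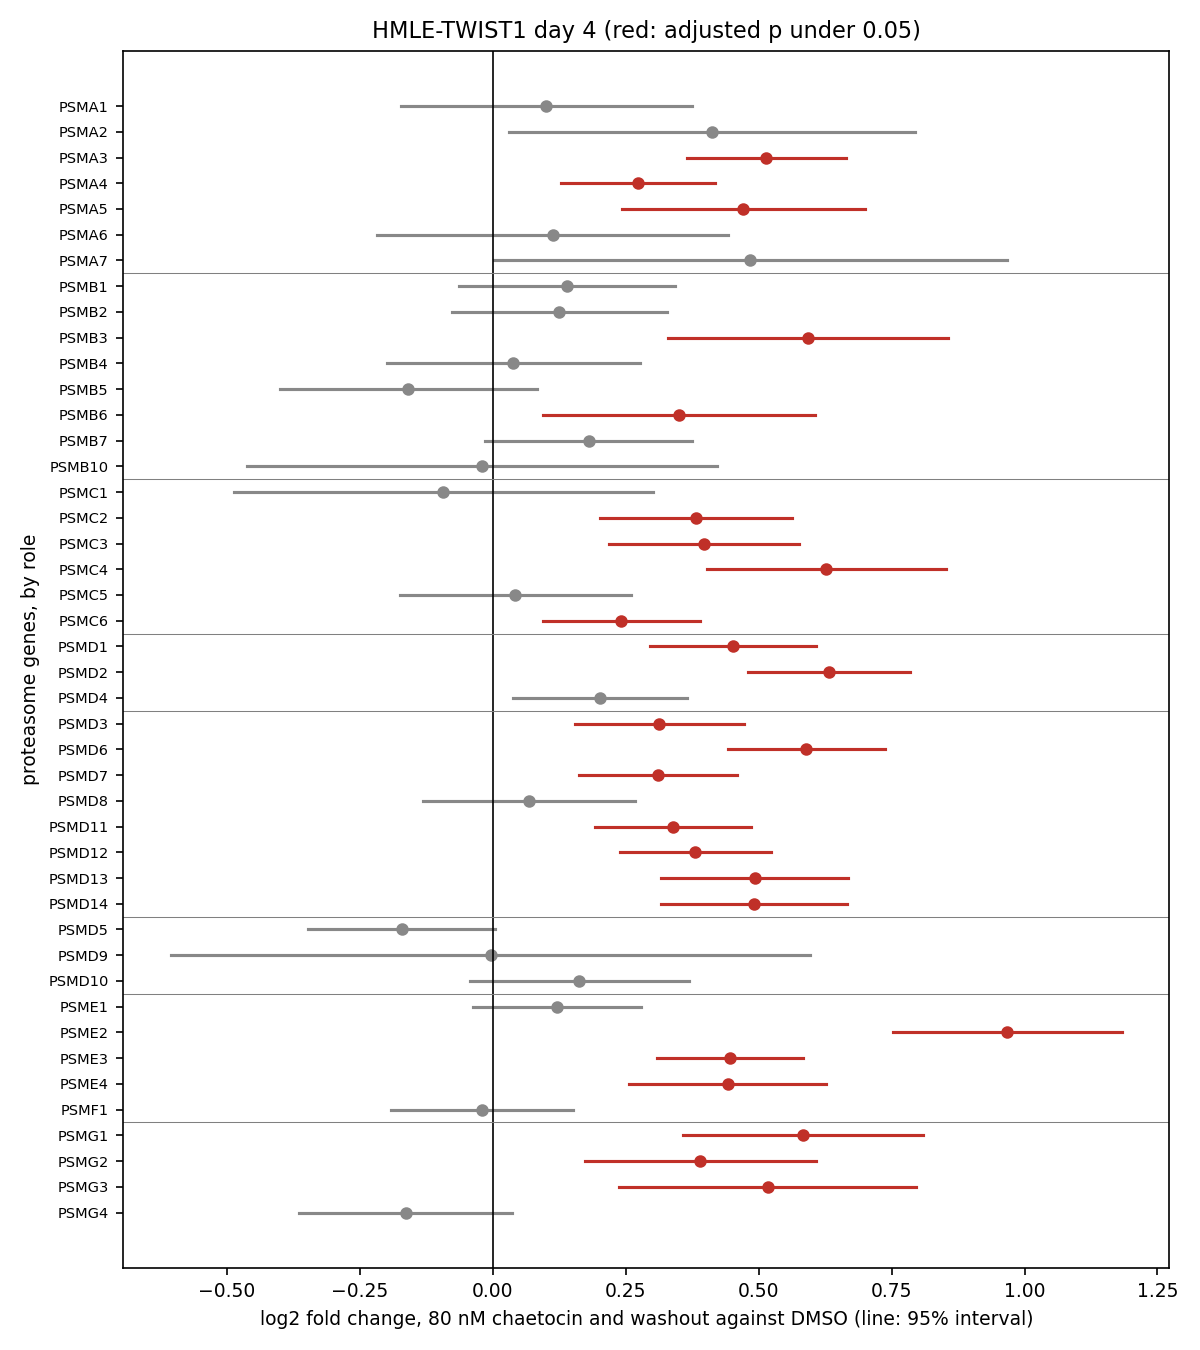
Log2 fold change (x axis) of each tested proteasome gene (y axis, by role) in HMLE-TWIST1 cells after 80 nM chaetocin and washout against DMSO, with its 95% interval as a line and genes past an adjusted p of 0.05 in red. The 24 genes in red all lie to the right of 0, and PSME2 lies farthest right.

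PSME2 rose most, from 26.0, 25.0 and 23.4 to 46.4, 51.4 and 46.5 CPM, with the groups far apart (0.97, SE 0.10, limma adjusted p = 6.2e-06). PSMD2 rose from 162, 184 and 161 to 248, 261 and 265 CPM (0.63, SE 0.07, limma adjusted p = 1.3e-05) and the ATPase PSMC4 from 41.7, 42.3 and 32.2 to 57.9, 55.5 and 63.0 (0.63, SE 0.11, limma adjusted p = 3.6e-04). In both, every treated library lay above every DMSO library. PSMD14 rose by 0.49, from 56.7, 59.96 and 50.9 to 74.5, 80.0 and 77.8 CPM. PSME3 and PSME4 rose by 0.45 and 0.44, whereas PSME1 (0.12, 95% interval -0.04 to 0.28) and the inhibitor PSMF1 (-0.02, 95% interval -0.19 to 0.15) did not pass. Other rises near the top were PSMB3, PSMD6, PSMG1 and PSMA3, of 0.59, 0.59, 0.58 and 0.51.

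Of the catalytic subunits PSMB6 alone was called. PSMB5 had 21.7, 20.5 and 19.5 CPM in DMSO and 19.6, 19.9 and 15.3 after washout (-0.16, 95% interval -0.40 to 0.08), and neither PSMB7 (0.18, 95% interval -0.01 to 0.38) nor PSMB10 (-0.02, 95% interval -0.46 to 0.42) passed. PSMB6 rose from 22.4, 22.6 and 19.7 to 31.0, 25.5 and 25.2 CPM (0.35, SE 0.12, limma adjusted p = 0.033), a call lost without 80 nM replicate 1 or DMSO replicate 1 or 3. PSMB6 therefore had opposite calls at 500 nM for 48 h and at 80 nM with washout, which differ in dose, exposure and control. PSMD4 did not pass (0.20, 95% interval 0.04 to 0.36).

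Among partners 10 of 13 rose and 1 fell, the median being 0.30. They included ADRM1, the ubiquitin receptor of the base (0.58), USP14, a deubiquitinase that docks there (0.42), and POMP, from 66.9, 76.0 and 68.5 to 94.6, 102 and 94.8 CPM (0.48, SE 0.08, limma adjusted p = 2.2e-04). NFE2L1 itself fell from 224, 235 and 246 to 139, 142 and 145 CPM (-0.71, SE 0.07, limma adjusted p = 2.4e-06), while MAFF (1.73) and MAFG (0.74) rose. All 7 NFE2L2 targets were higher, among them HMOX1 (3.22), TXNRD1 (0.85) and NQO1 (1.65), with a median of 0.85. Of 8 heat shock genes 5 rose, with HSPA1A at 1.61, HSP90AA1 at 1.14 and HSPH1 at 1.38. Of 12 shuttles and cofactors 7 rose and 1 fell, SQSTM1 rising by 1.02, and of 6 ubiquitin genes and E1 enzymes UBA1 (0.24) and UBB (0.24) rose. PSMB8 fell with a change of -0.37 and PSMB9 did not pass (0.22). Summed mesenchymal markers were 12865 to 19294 CPM after washout against 25679 to 32349 in DMSO, and the part of this in the result was not tested.

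Knockdown of SUV39H1 and SUV39H2 asks what loss of the enzymes does without the drug. SUV39H1 had 7.06, 7.17 and 5.15 CPM in HMLE scramble cells of day 2 and 3.22, 2.63 and 1.81 after knockdown, and 14.3, 11.7 and 11.9 and 4.93, 4.83 and 4.33 in HMLE-TWIST1. Its change was -1.28 and -1.40 at day 2 and -0.90 and -1.03 at day 4 (HMLE, then HMLE-TWIST1). That of SUV39H2 was -0.39, -1.21, -0.50 and -0.81 in the same order. All 8 passed. TWIST1 also fell after knockdown in HMLE-TWIST1, by -0.49 at day 2 and -0.48 at day 4, and both passed. In HMLE it fell at day 2 (-0.57) and did not pass at day 4 (0.14). The part of the TWIST1 change in the proteasome results was not tested.

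In HMLE at day 2, 15 of the 44 genes rose and 2 fell (all genes: 14.1% higher, 14.7% lower), with a median of 0.11. In HMLE-TWIST1 at day 2, 4 rose and 4 fell (all genes: 7.54% and 8.26%), with a median of 0.01. At day 4, 11 rose and 2 fell in HMLE (all genes: 11.7% and 14.4%), with a median of 0.05, and 15 rose and 5 fell in HMLE-TWIST1 (all genes: 19% and 19%), with a median of 0.07. The HMLE-TWIST1 shares at day 2 are near those of all genes. Of 7 alpha subunits 5 and 2 rose at day 2 in HMLE and HMLE-TWIST1, and 5 (with 1 fall) and 6 at day 4, where the alpha medians were 0.34 and 0.49. Of 8 beta subunits 0 and 0 rose at day 2, and 2 and 1 at day 4. Single libraries moved 3 of the counts: HMLE day 2 had 11 calls without knockdown replicate 1, HMLE-TWIST1 day 2 had 5 without scramble replicate 1, and HMLE day 4 had 8 without knockdown replicate 2 or scramble replicate 3.

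Markers of the cell state moved with the knockdown. Summed epithelial markers in HMLE were 23124 to 24589.5 CPM in scramble and 13195 to 14235 in knockdown libraries at day 2, and 23993 to 25427 and 19613 to 22309.8 at day 4. Summed mesenchymal markers in HMLE-TWIST1 were 30833 to 32670.4 and 23355 to 24699.9 CPM at day 2, and 19852 to 21594 and 10399 to 10590.4 at day 4, where the epithelial sum was 67.8 to 72.9 and 216 to 231. In each of these pairs the groups did not overlap, and the part of this in the proteasome results was not tested.

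**Figure D5:**
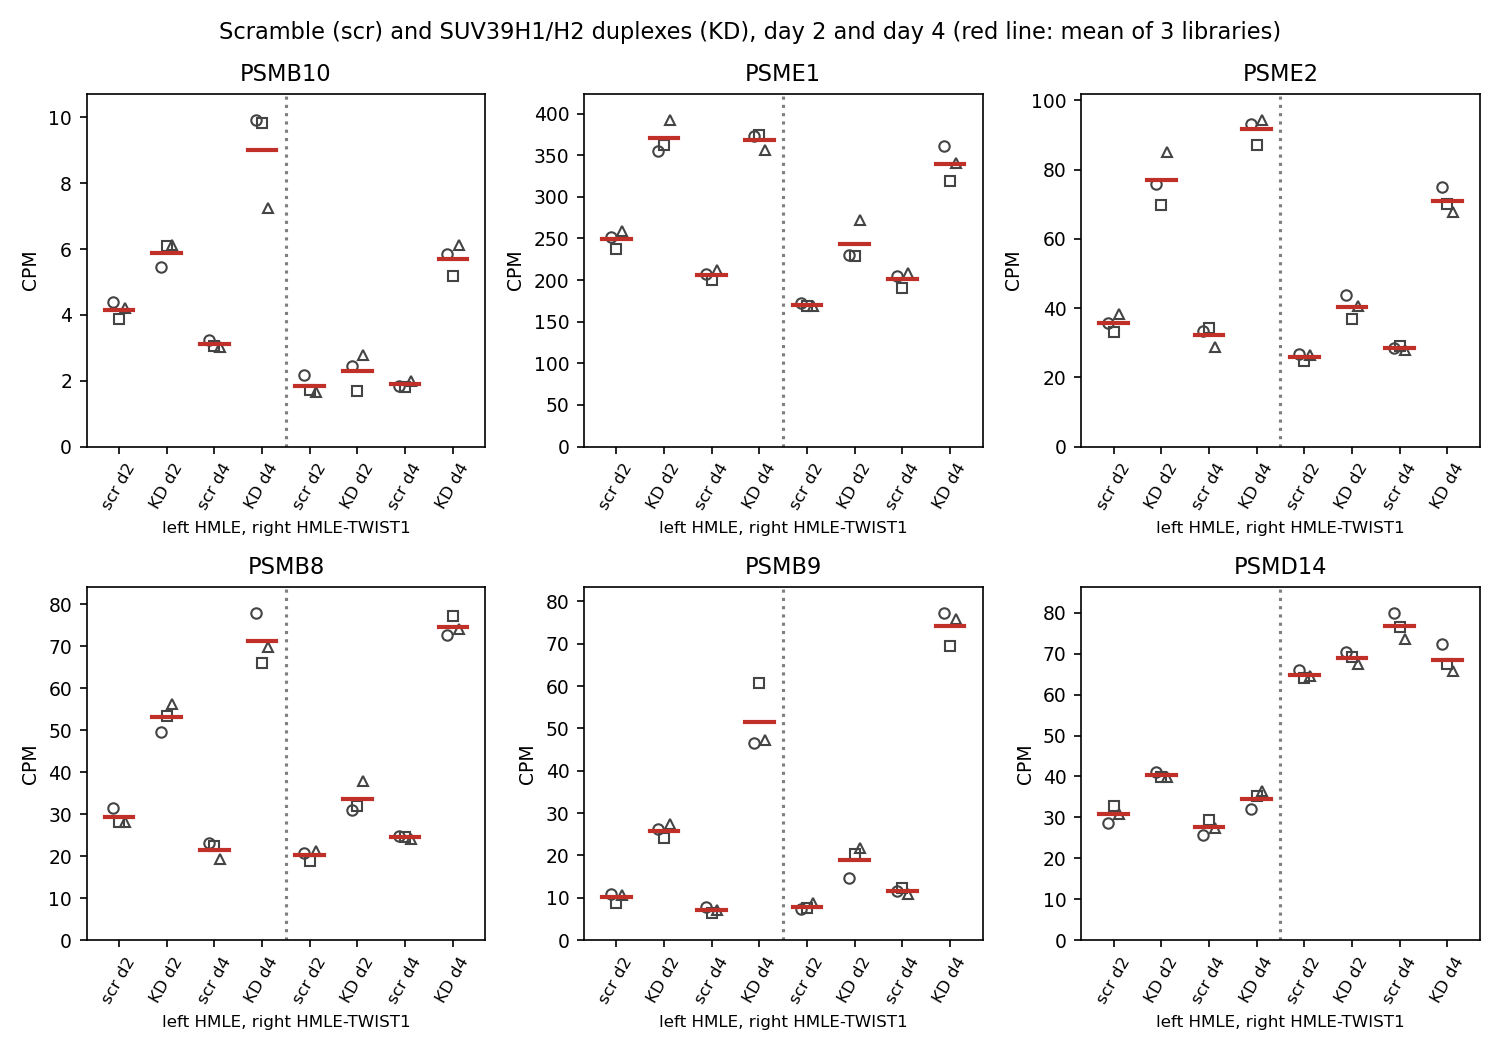
Level (y axis, CPM, starting at 0) of PSMB10, PSME1, PSME2, PSMD14 and the immunoproteasome genes PSMB8 and PSMB9 in scramble and knockdown libraries of days 2 and 4 (x axis), HMLE left of the dotted line and HMLE-TWIST1 right; 1 point per library and a red line at the mean of 3. PSME2 and PSMB9 lie higher after knockdown in both lines and on both days, and PSMB10 does so at day 4.

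At day 4 the largest rises in both lines were those of PSME2 and PSMB10. PSME2 went from 33.5, 34.4 and 28.9 to 93.1, 87.2 and 94.4 CPM in HMLE at day 4 (1.49, SE 0.07, limma adjusted p = 5.7e-11) and from 28.5, 28.9 and 28.0 to 75.01, 70.0 and 67.6 in HMLE-TWIST1 (1.29, SE 0.07, limma adjusted p = 2.2e-10). At day 2 it went from 35.6, 32.9 and 38.4 to 76.0, 69.6 and 85.1 CPM in HMLE (1.13) and from 26.8, 24.8 and 26.3 to 43.7, 36.9 and 40.6 in HMLE-TWIST1 (0.62). In none of the 4 pairs did the groups overlap. PSMB10 at day 4 went from 3.22, 3.05 and 3.03 to 9.93, 9.83 and 7.25 CPM in HMLE (1.46, SE 0.17, limma adjusted p = 4.1e-06) and from 1.84, 1.81 and 2.00 to 5.85, 5.17 and 6.11 in HMLE-TWIST1 (1.5, SE 0.17, limma adjusted p = 1.5e-06). At day 2 PSMB10 did not pass, with 0.52 (95% interval 0.10 to 0.93) in HMLE and 0.27 (95% interval -0.15 to 0.69) in HMLE-TWIST1. In HMLE at day 2 it did pass with only the groups compared in the fit, with precision weights and on the deposited scaling (limma adjusted p = 0.019, 0.020 and 0.048). PSME1 rose in all 4, by 0.60 and 0.50 at day 2 and 0.82 and 0.74 at day 4. In HMLE the alpha subunit PSMA3 rose more than PSME1, by 0.85 at day 2 and 0.89 at day 4.

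The other activators stayed near their controls in value. PSME3 passed in none of the 4 (-0.10 to 0.00), and PSME4 only in HMLE-TWIST1 at day 4 (0.19). PSMF1 passed only in HMLE at day 2 (-0.18, lost without knockdown replicate 1 or scramble replicate 3). PSMB5 and PSMB6 passed nowhere, PSMB5 with -0.06 to 0.00 and PSMB6 with -0.23 to 0.04. PSMB7 passed in HMLE at day 4 (0.22, lost without knockdown replicate 1 or 2 or scramble replicate 1 or 3). PSMD4 passed nowhere (-0.09 to 0.00).

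Of the alpha ring, PSMA3 and PSMA4 rose in all 4 comparisons. PSMA3 went from 56.1, 46.2 and 51.5 to 89.7, 98.3 and 99.8 CPM in HMLE at day 4 (0.89, SE 0.08, limma adjusted p = 1.2e-07) and from 70.7, 71.2 and 68.7 to 124, 106 and 112 in HMLE-TWIST1 (0.68), after 0.85 and 0.30 at day 2. PSMA4 rose by 0.67 and 0.25 at day 2 and 0.55 and 0.49 at day 4. The window of PSMA4 holds GAAANNGAA and that of PSMA3 does not.

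Falls were fewer and differed between the groups. PSMD8 went from 119, 106 and 101 to 69.0, 68.2 and 67.8 CPM in HMLE-TWIST1 at day 4, with every knockdown library lower (-0.68, SE 0.08, limma adjusted p = 1.5e-06). PSMG3 and PSMC3 fell there by -0.48 and -0.33. The beta subunit PSMB2 fell in HMLE-TWIST1 at day 2 (-0.43), with PSMD5 (-0.27, lost without scramble replicate 1) and the lid subunit PSMD3 (-0.21, lost without knockdown replicate 1 or 2 or any scramble replicate). In HMLE PSMC5 fell at day 2 (-0.31) and the chaperone PSMD9 at day 4 (-0.70), from 5.02, 5.50 and 4.16 to 3.34, 2.71 and 2.86 CPM.

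Whether the knockdown acted differently on the lines was tested directly. At day 2 the effect in HMLE-TWIST1 was below that in HMLE for 8 genes and above it for 0 (all genes: 6.36% above, 5.83% below), with a median of -0.14. At day 4 it was below for 4 and above for 2 (all genes: 12.2% above, 10.7% below), with a median of -0.01. PSMA3 differed by -0.55 (SE 0.10, limma adjusted p = 0.0011) at day 2, PSME2 by -0.51 (SE 0.12, limma adjusted p = 0.0088) and PSMA4 by -0.42 (SE 0.08, limma adjusted p = 0.0029), while at day 4 PSME2 did not pass (-0.20, 95% interval -0.41 to 0.02). PSMD14 rose in HMLE at both days (0.42 and 0.31) and was 0.08 and -0.18 in HMLE-TWIST1, a difference of -0.34 and -0.49, of which the first lost its call without any of 4 single libraries, HMLE knockdown replicate 1 or 2, HMLE-TWIST1 knockdown replicate 3 or HMLE-TWIST1 scramble replicate 2. PSMD8 at day 4 differed by -0.65 (SE 0.11, limma adjusted p = 2.9e-04). The opposite sign was seen for PSMD1, with -0.13 in HMLE, which did not pass, and 0.38 in HMLE-TWIST1, a difference of 0.51 (SE 0.08, limma adjusted p = 1.3e-04). The day 2 count was 3 without HMLE knockdown replicate 1, and 4 without HMLE knockdown replicate 2, HMLE-TWIST1 knockdown replicate 3 or HMLE-TWIST1 scramble replicate 2. It was 5 without HMLE scramble replicate 2 or HMLE-TWIST1 scramble replicate 1. The day 4 count of 6 was 3 without replicate 2 of either line's knockdown, HMLE scramble replicate 1 or HMLE-TWIST1 scramble replicate 1 or 2.

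The excluded immunoproteasome genes rose with these members. PSMB9 rose by 1.37 and 1.23 at day 2 and 2.80 and 2.64 at day 4, from 7.77, 6.45 and 7.19 to 46.5, 60.6 and 47.2 CPM in HMLE. PSMB8 rose by 0.89, 0.71, 1.70 and 1.58. The 9 antigen processing genes gave 8 rises in HMLE and 9 in HMLE-TWIST1 at day 2, and 9 in each at day 4, with medians of 1.41 and 1.39 at day 4. The peptide transporter subunit TAP1 rose at day 4 by 2.36 and 2.64, and the class I light chain B2M by 2.34 and 1.91. Partners gave fewer rises than falls: at day 4, of 13, 1 rose and 4 fell in HMLE and 0 rose and 5 fell in HMLE-TWIST1, as ZFAND5 (-0.25 and -0.48) and TXNL1 (-0.28 and -0.35). POMP passed only in HMLE at day 2 (0.39). NFE2L1 fell at day 2 (-0.40 and -0.25) and, in HMLE-TWIST1, at day 4 (-0.32), while NFE2L3 rose at day 4 (0.81 and 1.78). Of 7 NFE2L2 targets 1 rose and 3 fell in each line at day 4, NQO1 by -0.59 in HMLE-TWIST1. Changes of the 7 ran from -2.12 to 0.42 in HMLE and from -2.56 to 0.93 in HMLE-TWIST1. Heat shock genes gave 0 calls in HMLE and 7 rises of 8 in HMLE-TWIST1 at day 4, HSPH1 by 0.74. Of 6 ubiquitin genes and E1 enzymes 3 rose and 2 fell in HMLE and 2 and 2 in HMLE-TWIST1, with UBA6 rising (0.40 and 0.60). The lowest change among the 6 was -0.55 in HMLE and -1.28 in HMLE-TWIST1. Of 12 shuttles and cofactors 0 were called in HMLE at day 4, and in HMLE-TWIST1 3 rose and 5 fell. The knockdown comparisons share their scramble libraries with the comparison of the lines in scramble cells.

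The treatments compare as follows for the same genes, each against its own control. PSME2 rose at 500 nM (1.34), after washout (0.97) and after knockdown in HMLE-TWIST1 at day 4 (1.29), whereas PSME1 was 0.05, 0.12 and 0.74, of which only the last passed. PSMB9 was 0.05, 0.22 and 2.64, again with only the last past the threshold. PSMD2 was 0.83, 0.63 and -0.17, rising under chaetocin on both schedules and falling after knockdown, a fall that was lost whichever single library was left out. These differences between treatments were not tested, since the groups lie in separate parts of the table and differ in exposure and time.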

How the data were processed

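RNA was measured in 51 libraries. Reads were aligned with STAR to hg19 and counted with HTSeq, per the submitters' processing notes, with versions and strand setting not given in the sources used here. The authors deposited log2 RPKM values with an offset in 3 separately filtered and scaled parts of 15, 24 and 12 libraries (21700, 19777 and 23098 genes). Whole reads were recovered from their steps for 100% of values, at most 2.63e-08 from a whole number. A deposited table with 81 unnamed columns was not used.

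Reads were tested with limma 3.58.1 in R 4.3.3 as log2 CPM (prior count 2, trimmed-mean scaling, trend, robust). Genes needed 10 reads in 3 libraries and 15 in all. There were 20 planned comparisons of groups of 3 and 1 chosen after seeing the data. The procedure was tested on simulated data. Replicate libraries differed by more than sampling noise. Same-numbered libraries deviated together (every correlation over 0.1) between the lines in DMSO (0.15 to 0.23 at day 2, 0.11 to 0.23 at day 4), between 500 and 100 nM (0.32 to 0.61) and between days in HMLE DMSO cells (0.13 to 0.29), so there the replicate number pairs the libraries.

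Genes were named by rule: PSMB5, PSMB6, PSMB7, PSMB10, PSMD4, PSMD14, PSMF1, PSME1 to PSME4, PSMB8, PSMB9, POMP and NFE2L1 always, up to 3 largest rises and 3 largest falls per comparison among calls without overlap, and up to 3 genes per further list. Other members are named where a count or contrast needed them, after their values were seen. Members and lists were chosen with earlier results of these data known. Promoters and exon overlaps came from RefSeq (GRCh38.p14) and GENCODE 29 (GRCh38), not from the build of the files. Alternatives were median-ratio scaling, no filter, prior count 0.5, precision weights, only the groups compared, the replicate block, the deposited scaling and leaving out each library. Intervals and p-values cover these libraries only. Values of single genes in a few of the lists are not reported here.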

Additional observations from a re-analysis of the deposited data

Results flagged for a closer look

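In 21 cases a tested difference of an effect between the lines passed the threshold for a proteasome gene. All are differences in log2 fold change, HMLE-TWIST1 minus HMLE, from limma's test of the difference itself with n = 3 libraries per group.

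For the knockdown effect at day 2 the flagged genes were PSMA3 (-0.55), PSME2 (-0.51), PSMG2 (-0.49), PSMA4 (-0.42), PSMD12 (-0.39), PSMD14 (-0.34), PSMC2 (-0.32) and PSMD5 (-0.30). PSMA3, PSME2 and PSMA4 kept their calls under every alternative run, and PSMC2 lost its call only without HMLE knockdown replicate 1. The chaperone PSMG2 lost its call under 15 of the alternatives, PSMD5 under 13, PSMD12 under 10 and PSMD14 under 4. PSMG2 had 0.38 in HMLE and -0.10 in HMLE-TWIST1.

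For the knockdown effect at day 4 they were PSMD9 (0.74), PSMD8 (-0.65), PSMD1 (0.51), PSMD14 (-0.49), PSMG4 (-0.45) and PSMC3 (-0.31). PSMD8, PSMD14 and PSMD1 kept their calls under every alternative run. PSMG4 lost its call under 14, PSMC3 under 12 and PSMD9, a gene of 2.71 to 5.50 CPM in these HMLE libraries, under 10.

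For the change from day 2 to day 4 in DMSO, a test added after the data had been seen, they were PSMA3 (0.64), PSMB2 (0.53), PSME1 (0.53), PSMA4 (0.48), PSMC3 (0.40), PSMD3 (0.39) and PSMD11 (0.34). PSMA3, PSME1 and PSMA4 kept their calls under every alternative run, while PSMD11 lost its call under 12, PSMC3 under 8, PSMD3 under 7 and PSMB2 under 5. In HMLE the changes were -0.67 for PSMB2 and -0.63 for PSMC3, against -0.14 and -0.24 in HMLE-TWIST1.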

How the results depend on the processing

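Of 12716 values of single proteasome genes under the alternatives, 12102 kept their side of the threshold, 440 lost a call and 174 gained one. Of values called in the reported or the alternative fit 0 reversed in direction. Changes of sign in genes called in neither fit were not counted. Of 578 counts and medians 38 moved. A count moved where it changed by over 1.5 times. A median moved where it shifted by at least 0.101, the pooled SD between replicates of the median level. Medians nearer to 0 than this can change sign unmoved, as that of 100 nM did, from 0.014 to as low as -0.077 with 1 library left out. Leaving out 1 library at a time, the number of genes called (as reported, then lowest and highest) was 4, 3 and 7 for 100 nM, 9, 4 and 12 for 150 nM, 12, 7 and 13 for 200 nM, and 7, 2 and 10 for 500 against 100 nM, whose median of 0.12 went from 0.022 without 100 nM replicate 3 to 0.21. It was 17, 11 and 16 for knockdown in HMLE at day 2, 13, 8 and 12 in HMLE at day 4, and 8, 5 and 10 in HMLE-TWIST1 at day 2. For the differences between lines it was 8, 3 and 7 at day 2, 6, 3 and 6 at day 4, and 7, 3 and 13 for the day effect in DMSO. For 500 against 100 nM the count was 1 with only the groups compared in the fit, which leaves fewer libraries for the spread, 2 on the deposited log2 RPKM, and 4 with the dose libraries alone, a setting chosen after seeing the data; the cause was not tested. On the deposited log2 RPKM the day 4 difference between lines gave 3. The deposited scaling was not run for 100 to 500 nM against DMSO, which join separately scaled parts. Fits with the replicate block, where the pairing of numbers holds, gave 24 calls between the lines in DMSO at day 2 (20 without it), 23 at day 4 (20 without it), 28 between days in HMLE DMSO cells (28 without it) and 10 for 500 against 100 nM (7 without it), or 14 with the dose libraries alone, a setting added after seeing the data. The difference of the day effect in DMSO, whose numbers pair the libraries except between days in HMLE-TWIST1, gave 11 with the block (7 without it). In the other comparisons, where not every correlation was over 0.1, no total of calls moved by over 1.5 times with the block. The rises at 100 nM went from 1 to 3, the falls after knockdown in HMLE at day 4 from 2 to 1, and the genes above 0 in the day 4 difference between lines from 2 to 1. Among these comparisons is the washout, with correlations of 0.49, 0.47 and 0.07, where 26 genes passed with the block (24 without it). Depth limits the genes of low level, PSMB10, PSMA2 and PSMD9, with library totals of 7488700 to 16020800 reads after scaling.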
